A study of Mus musculus with 59 samples.

Results

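The 10 named genes of the antioxidant defence were examined in 3 muscles of tumour-bearing mice: Nqo1, Hmox1, Gclc, Gsr, Txnrd1, Srxn1, Sod1, Sod2, Cat and Gpx3. They were chosen by name, as antioxidant enzymes and NRF2 targets, with earlier results of these data known. All 10 were present among the 47643 gene symbols of the deposited expression table. The 59 libraries came from female NCI Ath/nude mice (athymic, without mature T cells) at 4 months of age, and each mouse carried a melanoma xenograft. The cachectic xenograft brings on loss of muscle, and the non-cachectic xenograft serves as its comparison. The diaphragm libraries formed 4 groups: 9 from mice with the non-cachectic melanoma without rFibcd1, 10 with the cachectic melanoma without rFibcd1, 10 with the non-cachectic melanoma treated with rFibcd1, and 10 with the cachectic melanoma treated with rFibcd1. rFibcd1 is a recombinant fragment of the secreted protein Fibcd1, and per the study's methods the diaphragm mice without it received mock injections. Tibialis anterior (a fast limb muscle) and soleus (a slow limb muscle) were each represented by 5 libraries per melanoma, none labelled as treated with rFibcd1. There was no tumour-free group, and per the study's methods each arm used 1 xenograft, so that cachexia and any other property of that tumour cannot be told apart. The labels do not say which muscles came from 1 mouse, and p-values measure the spread between these libraries.

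NRF2 (gene Nfe2l2) is a transcription factor that KEAP1 holds at a low level until oxidants or electrophiles modify KEAP1, after which NRF2 enters the nucleus and binds antioxidant response elements beside genes for glutathione, thioredoxin and quinone metabolism. BACH1 is a repressor that occupies many of the same elements, those of Hmox1 among them. Contracting muscle makes superoxide and hydrogen peroxide continuously, which are removed by superoxide dismutases in the cytosol (SOD1) and in mitochondria (SOD2), by catalase in peroxisomes, and by glutathione and thioredoxin peroxidases.

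Antioxidant response elements are read from the core TGACNNNGC, and the promoters of 7 of the 10 genes (250 bases before to 50 bases after an annotated start, RefSeq on GRCm38.p6) were searched for it on both strands. Hmox1, Gclc and Gsr had no promoter entry and were not searched. The core was found for Sod1, Srxn1 and 1 of the 3 Txnrd1 promoters. Of all 32851 promoters 12.4% held it, a share by promoter and not by gene. The matches are shown because Sod1 and Txnrd1 rose in both limb muscles while Srxn1 did not pass in either, each with 10 bases on either side, 5′ to 3′ on the strand that reads the core, with the core in capitals.
Sod1, minus strand, chr16:90220696-90220724: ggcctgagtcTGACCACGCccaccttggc
Srxn1, minus strand, chr2:152105542-152105570: tgtctcactcTGACCTAGCtgcccactgc
Txnrd1, second promoter, minus strand, chr10:82859104-82859132: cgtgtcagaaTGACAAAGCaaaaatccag
The Sod1 core lay at positions -56 to -48 from the start, the Txnrd1 core at -92 to -84, and the Srxn1 core downstream of the start, at 29 to 37. All were found on the strand opposite to the gene. The element TTCNNNGAA, read by STAT factors, was found in the Sod2 promoter, at -185 to -177, and in the second and the last of the Txnrd1 promoters, against 8.30% of all promoters. Txnrd1, with the same element, rose in both limb muscles, and no link between an element and a direction of change was tested. The Sod2 match is shown because Sod2 was called as lower with the cachectic melanoma in every muscle as deposited. In soleus that call was lost after median-ratio scaling. The element is in capitals.
Sod2, plus strand, chr17:13007644-13007672: tctccagggtTTCCCAGAAgcaggagtag
A match describes these letters in this window and is no measure of binding.

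On GRCm38, Nqo1 lies at chr8:107388225-107403206, Hmox1 at chr8:75093621-75100589, Gsr at chr8:33652523-33698163, Gclc at chr9:77754535-77794485 and Txnrd1 at chr10:82833951-82897712. Srxn1 lies at chr2:152105516-152111376, Cat at chr2:103453849-103485160, Sod1 at chr16:90220754-90226329, Sod2 at chr17:13006846-13040063 and Gpx3 at chr11:54902453-54910377. Each value covers the whole gene as the table lists it, and isoforms are not separated.

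The values are TPM, transcript abundance corrected for gene length and scaled to the same total in every library. TPM keeps no trace of the number of reads, so the depth behind each value is unknown. Between 16436 and 19456 genes were above 0 in a library. Libraries are named by the number in the column heading, which could not be tied to the replicate number in the labels. The summed level of 10 muscle genes (Acta1, Ckm, Mb, myosin heavy chains and others) lay between 48354 and 101549 TPM, so that every library was rich in muscle RNA. Mitochondrially encoded transcripts took a smaller share of TPM with the cachectic melanoma in every muscle, with means of 38.1% ± 3.18 (SD, n = 10) against 47.5% ± 2.97 (SD, n = 9) in mock-treated diaphragm, 38.8% ± 8.12 against 48.5% ± 1.80 in tibialis anterior and 30.5% ± 3.92 against 41.1% ± 2.00 in soleus (SD, n = 5 each). Because TPM adds up to the same total in every library, a smaller share of these transcripts goes with higher TPM elsewhere, and the counts of called members are therefore also given after median-ratio scaling, which sets the typical gene to no change. The libraries also fell into 2 states, marked by the pseudogene Pcna-ps2 at 1 TPM or more (high) or below (low). In the limb muscles every library with the cachectic melanoma was in the high state and every other library in the low state, so that state and melanoma cannot be told apart there. In diaphragm the high state held 3 of 9 non-cachectic and 9 of 10 cachectic mock libraries, and 6 of 10 and 8 of 10 with rFibcd1.

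**Figure D1:**
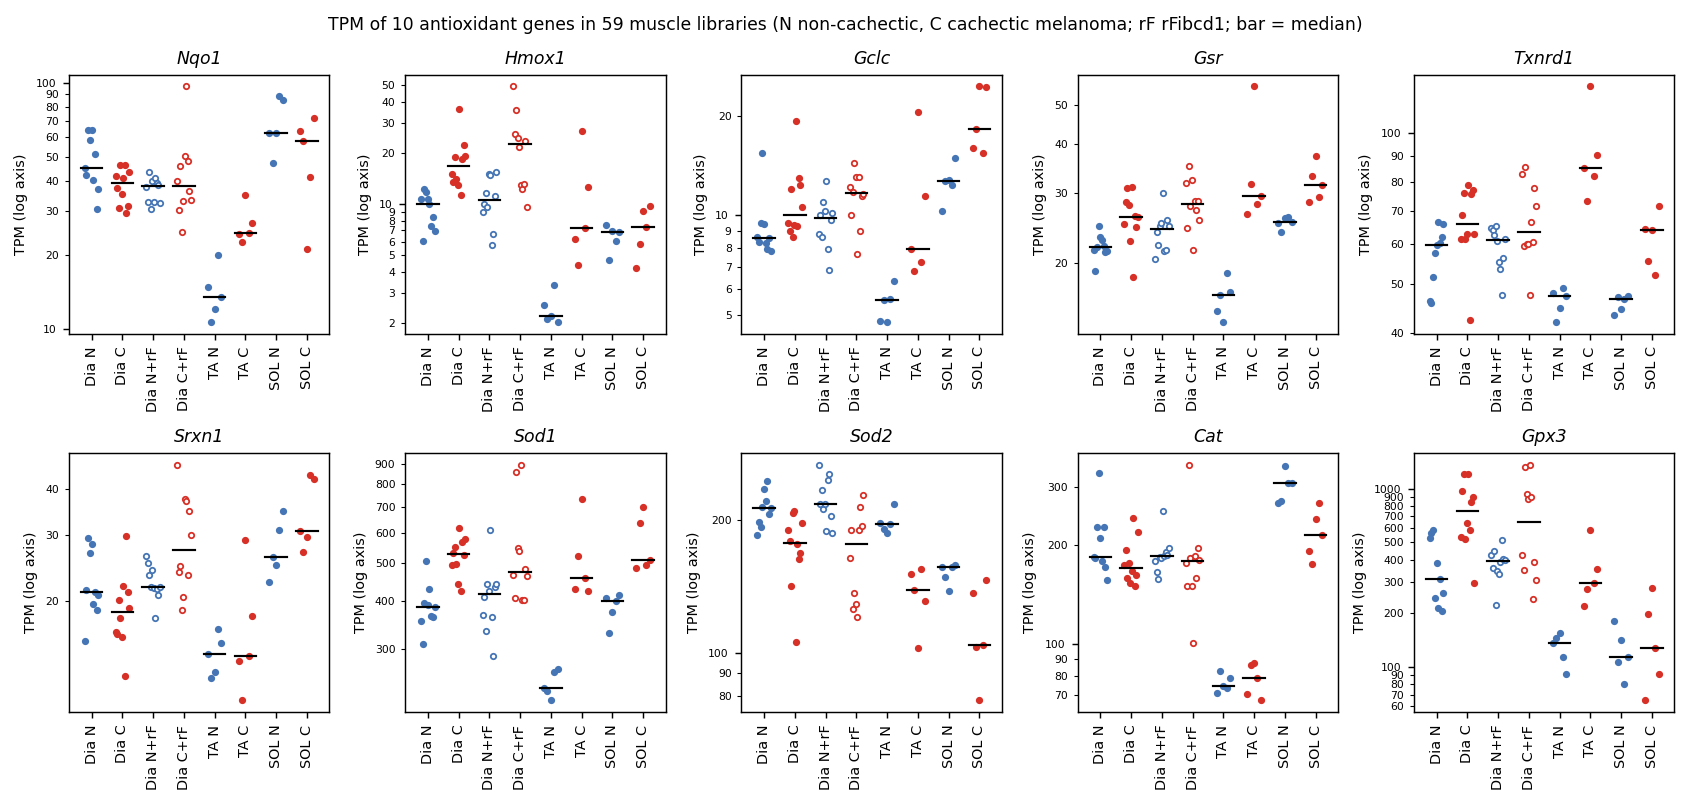
TPM of each of the 10 genes (log axis, 1 point per library, bar at the median) in the 8 groups: diaphragm (Dia), tibialis anterior (TA) and soleus (SOL) with the non-cachectic (N, blue) or cachectic (C, red) melanoma, open symbols for rFibcd1 (rF). In TA (5 libraries per group) the red and blue points of 8 genes do not overlap, against 51.7% of all genes. In diaphragm (9 or 10 per group) those of all 10 genes overlap. There 4.36% of all genes do not overlap without rFibcd1 and 0.0521% with it.

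The muscles with the non-cachectic melanoma differed in their antioxidant transcripts. By TPM, the most abundant members in diaphragm were Sod1 (median 385), Gpx3 (312), Sod2 (212) and Cat (184), and the least abundant were Hmox1 (10.1) and Gclc (8.58). Of the 10 members, 9 were higher in diaphragm than in tibialis anterior (limma, Benjamini-Hochberg adjusted p under 0.05), where 72.5% of all 13501 genes tested were called, 64.0% as higher and 8.52% as lower. Under median-ratio scaling 4 remained higher (Nqo1, Hmox1, Cat and Gpx3) and 2 were lower (Txnrd1, -0.28 on the log2 scale, and Sod2, -0.48), where 34.6% of all genes were higher and 36.4% lower. The direction of Txnrd1 turned between the scales, as did that of Gsr (0.41 as deposited and -0.14 after scaling), so that only those 4 were called as higher on both. For 7 members the groups did not overlap, against 61.7% of all genes. In whole muscle a change in the number of cells of a type and a change in RNA per cell cannot be told apart. Markers of other cells moved with the muscle: in diaphragm, tibialis anterior and soleus the summed medians were 593, 43.7 and 121 TPM for macrophages, 4609, 473 and 1075 TPM for red cells and 848, 324 and 1591 TPM for adipocytes. They were 222, 5.06 and 86.3 TPM for liver and 111, 0.138 and 0.421 TPM for mesothelium. All 5 were lowest in tibialis anterior, and their part in the levels of the members was not tested.

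Cat, which encodes the peroxisomal enzyme that splits hydrogen peroxide, differed among all 3 muscles. Soleus libraries held 269, 272, 308, 309.9 and 348 TPM. Diaphragm libraries held from 157 to 332 TPM (median 184). Tibialis anterior libraries held 71.1, 73.5, 74.7, 78.7 and 82.8 TPM, below every library of the other muscles. On the log2(TPM + 1) scale the diaphragm was higher than tibialis anterior by 1.41 ± 0.13 (SE, adjusted p = 8.9e-12) and lower than soleus by 0.56 ± 0.13 (adjusted p = 6.2e-04), although its highest library, number 64, overlapped the soleus values. Nqo1, an NAD(P)H-dependent quinone reductase, followed the same order, with 47.3 to 88.8 TPM in soleus, 30.8 to 64.5 in diaphragm and 10.6 to 19.9 in tibialis anterior. Its difference between diaphragm and tibialis anterior was 1.69 ± 0.20 (adjusted p = 5.1e-09), while that between diaphragm and soleus was -0.52 ± 0.20 (adjusted p = 0.040), was not called under median-ratio scaling (-0.47, adjusted p = 0.077), and the groups overlapped.

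Gpx3, the secreted, plasma glutathione peroxidase, followed a different order. Diaphragm libraries ranged from 206 to 586 TPM (median 312), tibialis anterior from 91.8 to 154 TPM (median 136) and soleus from 79.9 to 180.1 TPM (median 113). The diaphragm was above both limb muscles, by 1.42 ± 0.32 and 1.49 ± 0.32 (adjusted p = 1.6e-04 and 2.9e-04), with no overlap, whereas the limb muscles differed by 0.07 (95% interval -0.66 to 0.80). Sod2, the manganese superoxide dismutase of the mitochondrial matrix, was higher in diaphragm (184 to 245 TPM) than in soleus (138 to 158 TPM), by 0.48 ± 0.12 (adjusted p = 0.0026), and in tibialis anterior (186 to 217 TPM) than in soleus, by 0.38 ± 0.14 (adjusted p = 0.017). Between tibialis anterior and soleus, 8 members were called (1 higher, 7 lower) with 69.5% of all genes called (5.63% higher and 63.9% lower), the groups of 8 members did not overlap, against 71.3% of all genes, and between diaphragm and soleus 5 were called (3 higher, 2 lower) with 38.8% of all genes called (16.8% higher and 22.1% lower), and the groups of 2 did not overlap, against 28.8%. The calls of Nqo1 and Txnrd1 between diaphragm and soleus were both lost, leaving 3, without library 66, 68 or 70 of diaphragm or 63, 64 or 65 of soleus. After median-ratio scaling 4 members were higher in diaphragm than in soleus and 2 lower, with 23.2% of all genes higher and 24.0% lower: Hmox1 (0.51, adjusted p = 0.043) and Gclc (-0.37, adjusted p = 0.036) were gained and Nqo1 was lost. The scaled differences of Gpx3 from tibialis anterior and soleus were 0.84 and 1.54, and those of Sod2 between diaphragm and soleus and between tibialis anterior and soleus were 0.53 and 1.01, all called. Between tibialis anterior and soleus the median gene stood at -0.47, and after median-ratio scaling 2 members were called as higher (Txnrd1 and Sod2) and 4 as lower, with 28.2% and 25.1% of all genes.

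In tibialis anterior 7 members were higher with the cachectic melanoma (Nqo1, Hmox1, Gclc, Gsr, Txnrd1, Sod1 and Gpx3), Sod2 was lower, and Srxn1 and Cat were not called. Of all 11105 genes tested 60.2% were called, 56.4% as higher and 3.78% as lower, and the median gene stood at 0.41 on the log2 scale. The median of the 10 members was 0.91 as deposited and 0.42 after median-ratio scaling, where the median of all genes was -0.01. For 8 members the groups did not overlap, against 51.7% of all genes. After median-ratio scaling 6 were higher and 2 lower, with 18.4% and 21.9% of all genes: Gclc was no longer called (0.32, adjusted p = 0.10) and Cat was lower (-0.46, adjusted p = 0.012).

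Hmox1, which encodes the inducible enzyme that opens the heme ring and releases iron and biliverdin, had the largest difference of the 10. It was low with the non-cachectic melanoma, at 2.03, 2.12, 2.18, 2.54 and 3.32 TPM. With the cachectic melanoma it was at 4.401, 6.24, 7.19, 12.6 and 26.8 TPM, every library above every non-cachectic one, and the highest, number 8, stood well apart. The difference was 1.61 ± 0.35 on the log2(TPM + 1) scale (adjusted p = 0.0046) and 1.19 after median-ratio scaling. Macrophages are rich in heme oxygenase, and the summed level of 10 macrophage markers was 51.7 to 361.2 TPM with the cachectic and 31.7 to 64.0 TPM with the non-cachectic melanoma, none of the 10 being at 0. Library 8 had the highest macrophage sum of its group too. The part of these cells in the Hmox1 difference was not tested.

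Nqo1 was at 10.6, 11.999, 13.4, 14.8 and 19.9 TPM with the non-cachectic melanoma and at 22.6, 24.3, 24.4, 26.8 and 35.1 TPM with the cachectic one. The groups did not overlap, and Nqo1 was higher by 0.88 ± 0.17 (adjusted p = 0.0025).

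Both glutathione genes rose in tibialis anterior, Gsr on both scales and Gclc only as deposited. Gsr encodes the reductase that returns oxidized glutathione to its reduced form, and held 14.2, 15.1, 16.6, 16.9 and 18.8 TPM against 26.6, 28.2, 29.4, 31.6 and 55.8 TPM with the cachectic melanoma. The cachectic values were all above the others and 4 of the 5 lay close together, with library 8 far higher. Gsr rose by 0.98 ± 0.18 (adjusted p = 0.0022), and by 0.50 after median-ratio scaling. Gclc, the catalytic subunit of glutamate-cysteine ligase, the rate-limiting enzyme of glutathione synthesis, went from 4.78 to 6.37 TPM to 6.82 to 20.5 TPM, by 0.77 ± 0.24 (adjusted p = 0.019).

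Of the thioredoxin genes Txnrd1 rose and Srxn1 did not pass. Txnrd1, the cytosolic thioredoxin reductase, held 42.0, 44.8, 47.3, 47.9 and 49.0 TPM with the non-cachectic melanoma. It held 73.1, 82.1, 85.1, 90.7 and 124 TPM with the cachectic melanoma. The gap between the groups exceeded the spread within the non-cachectic group but not that within the cachectic group. The rise was 0.94 ± 0.13 (adjusted p = 5.4e-04). Srxn1, which encodes sulfiredoxin, the enzyme that repairs overoxidized peroxiredoxins, held 12.5 to 16.8 TPM and 10.9 to 29.2 TPM, overlapping, and its difference of 0.17 had a 95% interval of -0.29 to 0.64 (adjusted p = 0.47). On leaving out 1 library it lay between -0.03 and 0.31, with its direction turned in 1 of 10 fits.

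The superoxide dismutases moved in opposite directions. Sod1, the copper-zinc enzyme of the cytosol, held 222, 235, 238, 263 and 267 TPM with the non-cachectic melanoma and 426, 428, 458, 522 and 735 TPM with the cachectic one. Sod2 held 186, 190.3, 196, 197 and 217 TPM and 103, 131, 138, 151 and 155 TPM. Neither pair of groups overlapped. Sod1 rose by 1.04 ± 0.15 (adjusted p = 5.3e-04) and Sod2 fell by 0.55 ± 0.12 (adjusted p = 0.0043), and after median-ratio scaling the differences were 0.53 and -1.05, both called.

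Of the peroxide-removing enzymes, Gpx3 held 91.8, 113, 136, 145 and 154 TPM with the non-cachectic and 221, 273, 296, 354 and 589.9 TPM with the cachectic melanoma. It rose by 1.37 ± 0.23 (adjusted p = 0.0014) with no overlap, and library 8 was again the highest. The adipocyte sum also moved, from a median of 324 TPM (306 to 395 TPM) to 410.4 TPM (342 to 527 TPM), overlapping and highest in library 8, and the part of adipocytes in the Gpx3 difference was not tested. Cat held 71.1 to 82.8 TPM and 67.6 to 88.0 TPM, overlapping, with a difference of 0.04 (95% interval -0.19 to 0.26). Library 8 was the highest of its group for all members but Sod2, for which it was the lowest, and it had the lowest mitochondrial share of its group, 25.1%. Without it 8 members were still called, Hmox1 at 1.25 and Gclc at 0.53 on the log2 scale.

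**Figure D2:**
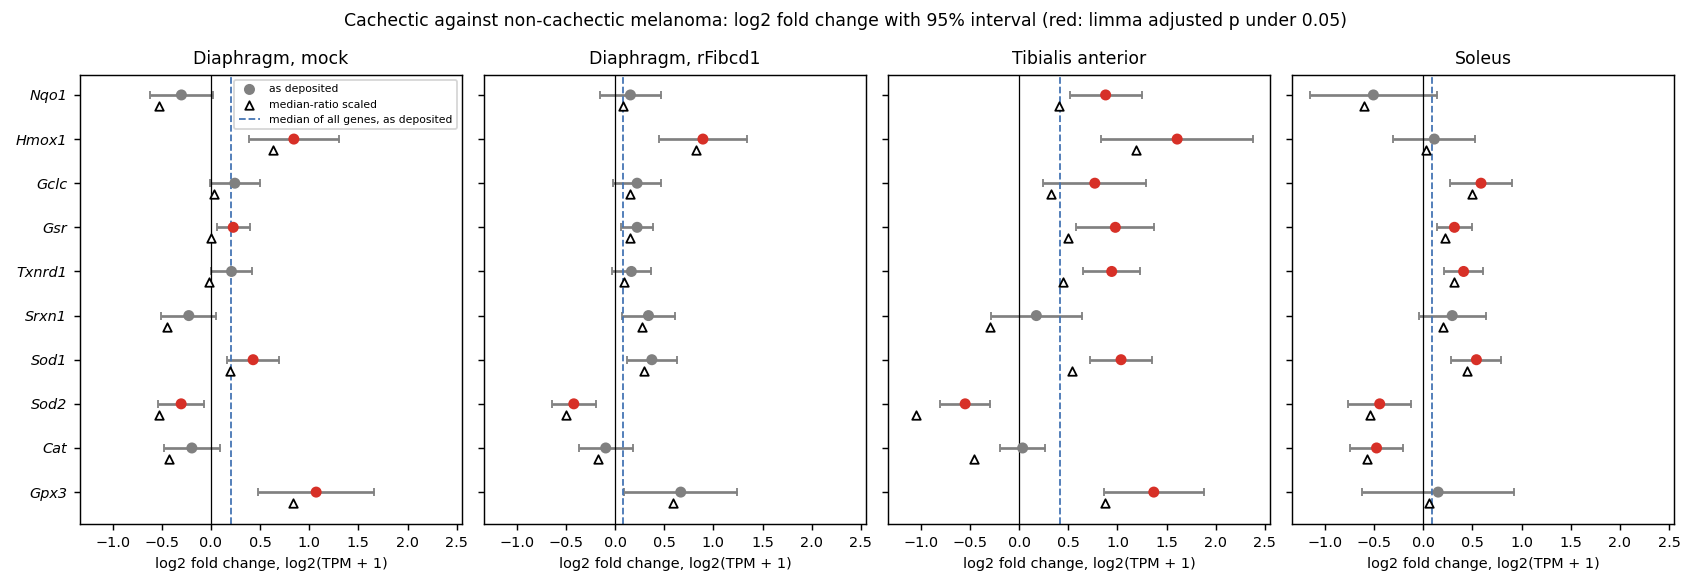
Difference between cachectic and non-cachectic melanoma on the log2(TPM + 1) scale (x axis) for each gene in 4 comparisons, as deposited (circles with 95% intervals, red where the adjusted p is under 0.05) and after median-ratio scaling (triangles), with the median of all genes as a dashed line. Sod2 lies left of 0 in all 4 panels on both scales, and Sod1 lies right of 0.

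In soleus 4 members were higher with the cachectic melanoma (Gclc, Gsr, Txnrd1 and Sod1) and 2 were lower (Sod2 and Cat), where 25.1% of all 11957 genes were called, 17.5% as higher and 7.54% as lower. The median gene stood at 0.09 and the median member at 0.22. After median-ratio scaling the same 4 were higher (Gclc 0.50, Gsr 0.23, Txnrd1 0.32 and Sod1 0.45) and Cat was lower (-0.57), with 15.2% and 12.8% of all genes. For 4 members the groups did not overlap, against 20.0% of all genes.

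Gclc held 10.3, 12.3, 12.7, 12.8 and 14.9 TPM in soleus with the non-cachectic melanoma and 15.5, 16.0, 18.2, 24.5 and 24.5 TPM with the cachectic one. The lowest cachectic library was just above the highest non-cachectic one, and the rise was 0.59 ± 0.15 (adjusted p = 0.013). Gsr went from 24.0 to 26.2 TPM to 28.5 to 37.3 TPM, by 0.32 ± 0.08 (adjusted p = 0.017). Txnrd1 went from 43.3 to 47.3 TPM to 52.1 to 71.7 TPM, by 0.41 ± 0.09 (adjusted p = 0.0076). None of these groups overlapped.

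Sod1 held 331, 376, 399, 408 and 413 TPM in soleus with the non-cachectic melanoma. With the cachectic melanoma it held 486, 496, 512, 636 and 699 TPM. All cachectic values were higher, and Sod1 rose by 0.54 ± 0.12 (adjusted p = 0.0068). Sod2 held 138, 148, 156, 156 and 158 TPM against 78.1, 103, 104, 136 and 146 TPM. Library 10 of the cachectic group lay within the non-cachectic range and library 6 just under it. Sod2 fell by 0.44 ± 0.15 (adjusted p = 0.047), a call that was lost under median-ratio scaling (-0.54, adjusted p = 0.054), with no filter on low values (adjusted p = 0.077), and on leaving out any of 8 of the 10 libraries (7, 8 and 9 of the cachectic and all 5 of the non-cachectic group), where the differences over the 10 fits lay between -0.54 and -0.32 and the largest adjusted p was 0.092. Cat held 269, 272, 308, 309.9 and 348 TPM against 175, 192, 215, 239.9 and 269 TPM, with the highest cachectic library just above the lowest non-cachectic one. Cat fell by 0.47 ± 0.12 (adjusted p = 0.015), and neither Sod2 nor Cat was called with the exact rank-sum test (adjusted p = 0.062 for both).

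The remaining members of soleus overlapped between the melanomas. Hmox1 was at 4.72 to 7.52 TPM and 4.20 to 9.68 TPM, a difference of 0.11 (95% interval -0.31 to 0.53). Nqo1 was at 47.3 to 88.8 TPM and 21.1 to 71.7 TPM, with -0.51 (-1.16 to 0.14). Library 8 was far below the rest of the cachectic group, which held 41.5 TPM or more, and without it the Nqo1 difference was -0.23 (adjusted p = 0.46). Gpx3 was at 79.9 to 180.1 TPM and 65.1 to 278 TPM, with 0.15 (-0.62 to 0.92), and Srxn1 at 22.6 to 34.8 TPM and 27.1 to 43.5 TPM, with 0.29 (-0.04 to 0.63). On leaving out 1 library the Gpx3 difference lay between -0.11 and 0.41, with its direction turned in 1 of 10 fits. Library 8 was the highest of the cachectic group for Gpx3, and it stood apart in its markers: its adipocyte sum was 7587 TPM (709 to 2398 TPM in the other 4), its liver sum 399 TPM (18.3 to 86.0 TPM) and its mitochondrial share 24.1%, the lowest of the group. The group medians of the adipocyte sum were 1748 TPM with the cachectic and 1591 TPM with the non-cachectic melanoma, and those of the liver sum 76.0 and 86.3 TPM. The part of these cells in the soleus values was not tested. These intervals are wide and do not show that the melanomas gave equal levels.

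In mock-treated diaphragm 4 members were higher with the cachectic melanoma (Hmox1, Gsr, Sod1 and Gpx3) and Sod2 was lower. Of all 13426 genes tested 33.5% were called, 30.9% as higher and 2.67% as lower, and the median gene stood at 0.20 against 0.22 for the median member. The groups overlapped for all 10 members, whereas 4.36% of all genes had groups that did not overlap. After median-ratio scaling Hmox1 was the only member higher (0.63, adjusted p = 0.025), and Sod2 (-0.53) and Cat (-0.42, adjusted p = 0.041) were lower, with 7.39% and 8.41% of all genes.

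Hmox1 ranged from 6.04 to 12.2 TPM (median 10.1) in the 9 non-cachectic libraries and from 11.3 to 36.2 TPM (median 16.7) in the 10 cachectic ones. One cachectic library, number 22, lay within the non-cachectic range. The difference was 0.84 ± 0.23 (adjusted p = 0.0050). The summed macrophage markers had medians of 593 TPM (range 233.8 to 818 TPM) and 1028 TPM (409.5 to 1694 TPM) in the same groups, and library 22 had the lowest sum of its group. Library 20, with the highest Hmox1 (36.2 TPM), had the lowest sum but one (602.7 TPM), and library 34, with the highest sum, held 22.2 TPM of Hmox1. The part of these cells in the result was not tested.

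Gpx3 ranged from 206 to 586 TPM (median 312) with the non-cachectic and from 296 to 1218 TPM (median 747) with the cachectic melanoma. Of the 10 cachectic libraries 6 were above the highest non-cachectic value, and library 35 lay in the lower part of the non-cachectic range. Gpx3 rose by 1.07 ± 0.29 (adjusted p = 0.0055), and the difference after median-ratio scaling was 0.84 (adjusted p = 0.076, not called). Adipocytes also make this enzyme, and 8 adipocyte markers summed to medians of 848 TPM (715.1 to 2399 TPM) and 1729 TPM (1165 to 5517 TPM). Library 35, with the highest adipocyte sum, had the lowest Gpx3 of the cachectic group (296 TPM), and within groups Gpx3 and the adipocyte sum correlated at 0.12 over the 59 libraries. The part of adipocytes in the Gpx3 difference was not tested.

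Sod1 ranged from 309 to 507 TPM (median 385) and from 424 to 618 TPM (median 529), a rise of 0.43 ± 0.13 (adjusted p = 0.012) that stood at 0.20 after median-ratio scaling and was then not called. Sod2 ranged from 184 to 245 TPM (median 212) and from 106 to 209 TPM (median 177), lower by 0.30 ± 0.11 (adjusted p = 0.038). The Sod2 call was lost with no filter on low values and on leaving out any of 9 libraries, 4 cachectic (8, 20, 32 and 34) and 5 non-cachectic (64, 65, 66, 67 and 70), and over all 39 such fits the difference lay between -0.34 and -0.23. Gsr ranged from 19.1 to 24.8 TPM (median 21.975) and from 18.4 to 31.1 TPM (median 26.2), with a difference of 0.23 ± 0.08 (adjusted p = 0.031), close to that of the median gene, and of 0.00 after median-ratio scaling. Its call was lost without library 7, 8 or 20 of the cachectic or 62 of the non-cachectic group.

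Library 64 of the non-cachectic mock group carried liver transcripts, with 7 liver markers at 10393 TPM against a group median of 222 TPM. It was the highest of its group for Cat (332 TPM), Gclc (15.4 TPM) and Sod1 (507 TPM), genes that liver expresses strongly. Library 32 of the cachectic mock group also had a high liver sum, 2602 TPM against a group median of 224 TPM. The part of liver RNA in the differences of these genes was not tested. In the mock groups Cat ranged from 157 to 332 TPM (median 184) and from 150.4 to 243 TPM (median 170.2), a difference of -0.19 (adjusted p = 0.28). Over the 39 fits without 1 library the Cat difference lay between -0.24 and -0.11 (largest adjusted p = 0.55). Gclc ranged from 7.82 to 15.4 TPM (median 8.58) and from 8.62 to 19.3 TPM (median 10.0). Without library 64 Gclc was called as higher with the cachectic melanoma (0.33, adjusted p = 0.030), in place of 0.24 (adjusted p = 0.12). Without library 20, the highest of the cachectic group (19.3 TPM), the difference was 0.16 (adjusted p = 0.28). Library 22 of the cachectic mock group, the only one of its group in the low state, was the lowest for Txnrd1 (42.4 TPM), where the groups ranged from 45.9 to 66.6 TPM (median 59.8) and from 42.4 to 78.7 TPM (median 65.9). Without it Txnrd1 was called (0.28, adjusted p = 0.017), in place of 0.21 (adjusted p = 0.10). Without library 8 or 20 of the cachectic mock group 3 members were called, in place of 5 with all libraries, where 33.5% of all genes were called.

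Nqo1 and Srxn1 were not called. Nqo1 ranged from 30.8 to 64.5 TPM (median 45.2) and from 29.6 to 46.2 TPM (median 39.2), with a difference of -0.30 (95% interval -0.62 to 0.02). Srxn1 ranged from 15.7 to 29.6 TPM (median 21.1) and from 12.6 to 29.9 TPM (median 18.7), with -0.23 (-0.50 to 0.05).

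With the state of the library as a term, Gpx3 was the only member called in mock-treated diaphragm (1.41, adjusted p = 0.0021), with 15.3% of all genes called. In high-state libraries alone it was again the only one (1.69, adjusted p = 0.030), with 5.69%. The count of 1 in 10 is near these shares. Hmox1 then stood at 0.60 and 1.02 (adjusted p = 0.077 and 0.058), Sod1 at 0.35 and 0.44, Sod2 at -0.27 and -0.32, and Gsr at 0.11 and 0.29. With the state as a term the Nqo1 difference between melanomas was -0.01.

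Under rFibcd1, 2 members were called between the melanomas in diaphragm, Hmox1 as higher and Sod2 as lower, with 9.11% of all genes called (7.14% higher and 1.97% lower). The groups of all 10 members overlapped, and 0.0521% of all genes had groups that did not. Hmox1 ranged from 5.76 to 15.3 TPM (median 10.6) and from 9.65 to 49.3 TPM (median 22.5), overlapping, and differed by 0.89 ± 0.22 (adjusted p = 0.0093). The macrophage sum had medians of 746 TPM (325.5 to 1899 TPM) and 1241 TPM (331.1 to 3755 TPM), and library 1 had both the highest sum and the highest Hmox1 (49.3 TPM) of the cachectic group. Sod2 ranged from 186 to 266 TPM (median 217) and from 121 to 227 TPM (median 176), lower by 0.42 ± 0.11 (adjusted p = 0.015). Both calls stood after median-ratio scaling, with 4.23% of all genes higher and 4.74% lower, and with the state as a term, with 10.1% called. Neither stood when only these 2 groups were fitted (adjusted p = 0.054 and 0.056), with Dunn rank tests (0.11 and 0.10), or in high-state libraries alone (0.30 and 0.40).

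The other members under rFibcd1 were not called. Sod1 ranged from 288 to 609 TPM (median 417) and from 401 to 899 TPM (median 475), with 0.37 (adjusted p = 0.055), and Gsr from 20.5 to 30.0 TPM (median 24.4) and from 21.5 to 35.1 TPM (median 28.2), with 0.22 (adjusted p = 0.067). Leaving out library 2, 16 or 18 of the cachectic or 56 of the non-cachectic group gave 4 calls, in place of 2 with all libraries, where 9.11% of all genes were called. Gpx3 ranged from 223 to 513 TPM (median 394) and from 241 to 1366 TPM (median 649.8). It was spread over more than 5-fold in the cachectic group and differed by 0.67 (95% interval 0.09 to 1.24). Srxn1 ranged from 18.1 to 26.4 TPM (median 21.8) and from 18.9 to 46.4 TPM (median 27.4), and Nqo1 from 30.7 to 43.5 TPM (median 38.0) and from 24.6 to 97.0 TPM (median 38.2), with library 14 of the cachectic group far above the others. The range of the other 5 differences was -0.10 (Cat) to 0.34 (Srxn1).

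rFibcd1 itself gave no called member in either melanoma group. In the cachectic diaphragm 0.0447% of all genes were called, 0.0372% as higher (6 of 13426 in all, with 1412 at an unadjusted p under 0.05), and in the non-cachectic diaphragm 0.417% (56, with 2332 at an unadjusted p under 0.05). In high-state libraries alone 789 of 14159 genes were called at the adjusted threshold in cachectic diaphragm, with no member among them. In the fit of all libraries 1 member passed the unadjusted threshold in each. In cachectic diaphragm it was Srxn1, which ranged from 12.6 to 29.9 TPM (median 18.7) with mock and from 18.9 to 46.4 TPM (median 27.4) with rFibcd1. The groups overlapped, and the difference was 0.58 ± 0.13 (95% interval 0.31 to 0.86, adjusted p = 0.12). It was called on leaving out library 3 or 4 of the rFibcd1 or 32 of the mock group, and with the Dunn test no member was called. In non-cachectic diaphragm it was Nqo1, which ranged from 30.8 to 64.5 TPM (median 45.2) with mock and from 30.7 to 43.5 TPM (median 38.0) with rFibcd1, a difference of -0.35 ± 0.16 (adjusted p = 0.28) that was called when only these 2 groups were fitted (adjusted p = 0.049). The Nqo1 difference was -0.53 after median-ratio scaling (adjusted p = 0.55), -0.22 with the state as a term (adjusted p = 0.66) and -0.06 in high-state libraries alone (adjusted p = 0.86), where 3 of the 9 mock and 6 of the 10 rFibcd1 libraries remain.

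For the other 9 members in cachectic diaphragm the effect of rFibcd1 lay between -0.25 (Gpx3, 95% interval -0.83 to 0.32) and 0.22 (Hmox1, -0.22 to 0.67). The intervals were narrowest for Gsr (-0.05 to 0.27) and Txnrd1 (-0.19 to 0.21). No interaction of melanoma and rFibcd1 was called for a member, with 0.0223% of all genes called (3, with 1180 at an unadjusted p under 0.05). As deposited and without the library state as a term, the largest interactions among the members were 0.57 for Srxn1 (adjusted p = 0.51) and 0.46 for Nqo1 (adjusted p = 0.57). These comparisons share their control libraries with those between the melanomas.

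The response to the cachectic melanoma was compared between muscles in a single fit of the 6 groups without rFibcd1. Relative to tibialis anterior, the response of diaphragm was smaller for Nqo1 (-1.18 ± 0.28, adjusted p = 0.013), Gsr (-0.75 ± 0.16, 0.0048), Txnrd1 (-0.73 ± 0.16, 0.0064) and Sod1 (-0.61 ± 0.16, 0.020), where 5.04% of all 13501 genes were called, 0.711% with a larger and 4.33% with a smaller response in diaphragm. After median-ratio scaling the differences of Gsr (-0.50) and Txnrd1 (-0.47) were still called, and those of Nqo1 and Sod1 were not (-0.94 and -0.34, adjusted p = 0.068 and 0.075), where 3.13% of all genes had a larger and 2.01% a smaller response in diaphragm. Without library 8 of tibialis anterior the Sod1 difference was -0.47 and lost its call.

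The response of tibialis anterior exceeded that of soleus for 5 members, with 20.4% of all genes called (19.1% with a larger and 1.26% with a smaller response in tibialis anterior): Hmox1 (1.49 ± 0.40, adjusted p = 0.011), Nqo1 (1.39 ± 0.32, 0.0039), Gsr (0.66 ± 0.18, 0.012), Txnrd1 (0.53 ± 0.18, 0.039) and Sod1 (0.50 ± 0.18, 0.046). Hmox1 alone was called after median-ratio scaling (1.201, adjusted p = 0.015), with Nqo1 at 1.00 (adjusted p = 0.062), and more genes then had a smaller (7.72%) than a larger (3.77%) response in tibialis anterior. The calls of Txnrd1 and Sod1 were both lost without library 8 of the cachectic or 62 or 63 of the non-cachectic tibialis anterior, 6 or 9 of the cachectic soleus, or 63, 64 or 65 of the non-cachectic soleus, and also with no filter on low values, which left 3 calls, or 4 without library 9, where Cat was called. Txnrd1 alone lost its call without 2 further libraries and Sod1 alone without 8. Between diaphragm and soleus no member was called, with 2.52% of all genes called, 1.95% with a larger and 0.570% with a smaller response in diaphragm (340 in all, with 2134 at an unadjusted p under 0.05, 3 of them members). After median-ratio scaling Srxn1 was called (-0.66, adjusted p = 0.048), with 1.28% of all genes larger and 2.45% smaller in diaphragm. The response of Sod2 did not pass in any of these comparisons, at 0.25 (95% interval -0.11 to 0.60), 0.14 (-0.21 to 0.49) and -0.11 (-0.51 to 0.30).

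The opposite movement of Sod1 and Sod2 was described, after their values had been seen, by their ratio within a library, in which the scale of the library cancels. In tibialis anterior the ratio was 1.19 to 1.34 with the non-cachectic and 2.84 to 7.16 with the cachectic melanoma. In soleus it was 2.24 to 2.72 and 3.50 to 8.96. In both limb muscles the groups did not overlap. In tibialis anterior this was fixed beforehand, since all cachectic Sod1 values lay above and all Sod2 values below the non-cachectic ones. In soleus the Sod1 values alone did not overlap. The ratio is therefore no further evidence of a difference. In mock-treated diaphragm it was 1.495 to 2.38 (median 1.82) and 2.12 to 5.85 (median 2.95), and under rFibcd1 1.13 to 3.24 (median 1.92) and 1.88 to 7.45 (median 2.67), overlapping in both. The ratio shows unequal movement of the 2 transcripts and not which of them moved.

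**Figure D3:**
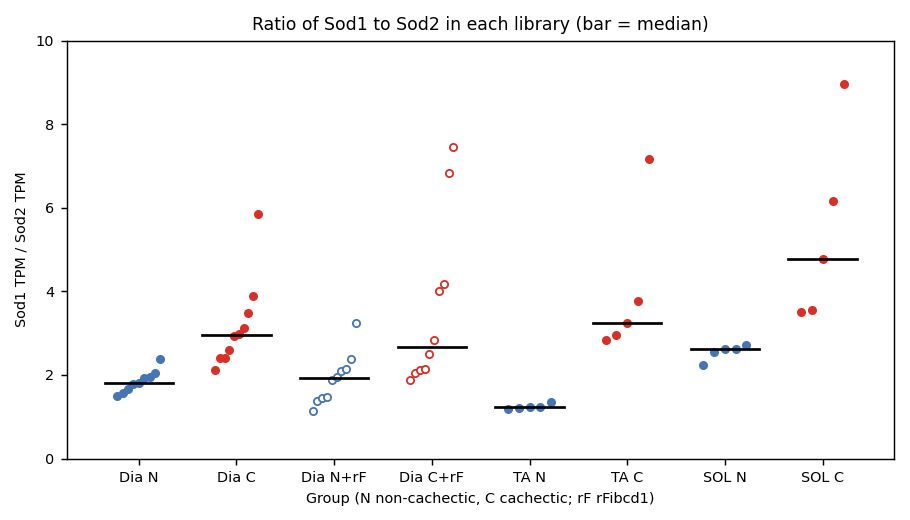
Ratio of Sod1 TPM to Sod2 TPM (y axis, from 0) in each library of the 8 groups, with the median as a bar (N non-cachectic, C cachectic, rF rFibcd1). The red points of the limb muscles lie at 2.84 or above, and the blue points of the limb muscles at 2.72 or below. The ratio was formed after the values of both genes had been seen.

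Within groups the members did not vary as 1 block. Over the 59 libraries, after the mean of each group was subtracted, the 45 pairs of members had correlations of log2(TPM + 1) from -0.70 to 0.70 with a median of 0.24. Hmox1, Gclc, Gsr and Txnrd1 varied together, with the closest pairs Gclc and Gsr (0.70), Hmox1 and Gclc (0.69) and Hmox1 and Gsr (0.67). Sod2 ran against Gpx3 (-0.70), Sod1 (-0.64) and Hmox1 (-0.52). Nqo1 was near 0 with every member except Srxn1 (0.38), Sod2 (0.29) and Cat (0.12). These points share the total of the library: the mitochondrial share correlated with Sod1 at -0.74, with Gsr at -0.61 and with Sod2 at 0.62, and the macrophage sum with Hmox1 at 0.67.

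**Figure D4:**
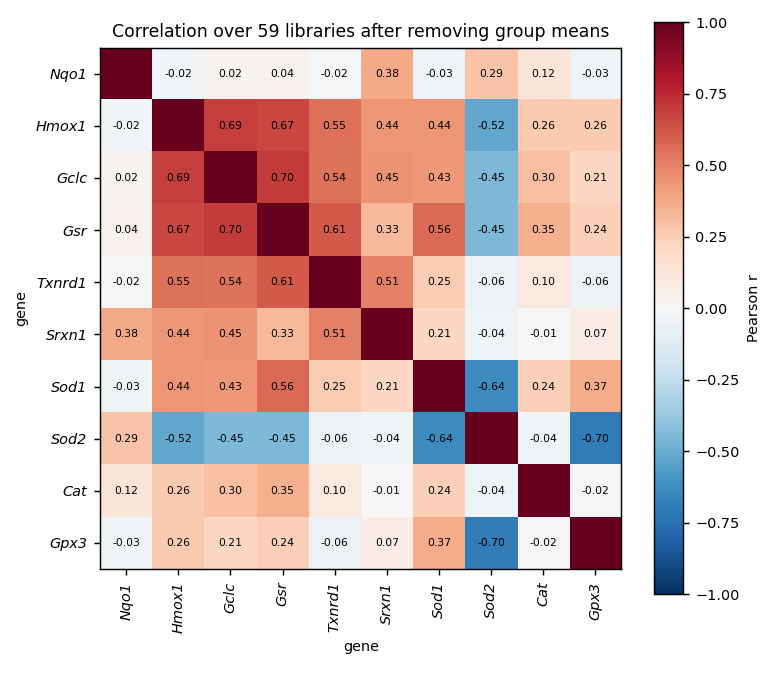
Pearson correlation (colour, -1 to 1) between the 10 genes (both axes) over 59 libraries, from log2(TPM + 1) with the group means removed. Hmox1, Gclc, Gsr and Txnrd1 form a positive square of 0.54 to 0.70, and Sod2 is negative with Hmox1, Gclc, Gsr, Sod1 and Gpx3.

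The genes most alike to each member were taken by the same measure among 9660 genes. Sod2 was closest to Ppif, the mitochondrial cyclophilin (0.85), and Sdhc, a subunit of succinate dehydrogenase (0.84). Cat was closest to Hsd17b4, an enzyme of peroxisomal fatty acid oxidation (0.76), and Fbxo21 (0.73). Gpx3 was closest to Fkbp5, an FK506-binding co-chaperone known as a glucocorticoid target (0.78), and Grasp (0.76). Hmox1 was closest to Sat1, an enzyme of polyamine breakdown (0.83), and Npm1, nucleophosmin (0.82). Srxn1 was closest to the chaperone gene Dnajb4 (0.68) and Nolc1 (0.66). Sod1 was closest to Lhpp (0.84) and the ribosomal protein gene Rps9 (0.83), Gsr to Ddx27 (0.89) and Arl8a (0.86), Gclc to Pttg1ip and Scap (both 0.82), Txnrd1 to Ppfia1 (0.82) and Flywch1 (0.81), and Nqo1 to Vwa7 (0.70) and Tcea3 (0.60). The points share library totals and composition, so these are descriptions only.

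The 3 regulators were all called in tibialis anterior, where 60.2% of all genes were, and none was called in soleus, where 25.1% were. In tibialis anterior Nfe2l2 went from 17.6 to 20.4 TPM with the non-cachectic to 23.4 to 49.1 TPM with the cachectic melanoma, a rise of 0.67 ± 0.17 (adjusted p = 0.0075). Keap1 rose by 0.74 ± 0.16 (adjusted p = 0.0044) and Bach1 by 0.84 ± 0.18 (adjusted p = 0.0038). After median-ratio scaling Keap1 (0.25) and Bach1 (0.37) were still called and Nfe2l2 (0.19) was not, with 18.4% of all genes higher. In mock-treated diaphragm Nfe2l2 (0.32 ± 0.12, adjusted p = 0.043) and Keap1 (0.29 ± 0.09, adjusted p = 0.0090) were called and Bach1 (0.23 ± 0.17) was not, where 33.5% of all genes were called. None was called after median-ratio scaling, with 7.39% of all genes higher and 8.41% lower. In soleus the differences were 0.03 for Nfe2l2, 0.22 for Keap1 and -0.02 for Bach1, and under rFibcd1 in diaphragm 0.30, 0.23 and 0.13, none called.

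Beyond the 10 members, 68 other genes of the pathway were listed and 66 were in the table. In tibialis anterior 46 of 64 tested (71.9%) were higher and 3 lower, with a median of 0.62, where 56.4% of all genes were higher and their median was 0.41. After median-ratio scaling 19 were higher and 10 lower, with 18.4% and 21.9% of all genes, and the same shares apply to the scaled counts by list. The highest were Chac1 (1.71), which encodes an enzyme that degrades glutathione, Slc3a2 (1.67), the heavy chain of the cystine-glutamate exchanger and other amino acid transporters, and the glutathione transferases Gstp1 (1.38) and Mgst1 (1.30). The 3 lower were Glrx (-0.51), glutaredoxin, Msra (-0.48), a methionine sulfoxide reductase, and Oplah (-0.27), an enzyme that recovers glutamate from 5-oxoproline. By list, 8 of 9 NRF2 regulators were higher as deposited, and 3 were higher and 1 lower after scaling. Of 15 genes that use glutathione 11 were higher and 1 lower, and after scaling 5 were higher and 2 lower. Of 5 genes of glutathione synthesis and cystine supply 3 were higher and 1 lower, on both scales. Of 10 thioredoxin and peroxiredoxin genes 6 were higher, and after scaling 1 was higher and 4 lower. Of 8 genes that supply NADPH 6 were higher, and after scaling none was higher and 1 lower. Of 10 genes of quinone, heme and conjugation metabolism 8 were higher and 5 after scaling, and of 7 other antioxidant genes 4 were higher and 1 lower, and after scaling 2 and 1.

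In soleus 12 of 65 (18.5%) were higher, near the 17.5% of all genes, and 3 lower, and after median-ratio scaling 8 were higher and 6 lower, with 15.2% and 12.8% of all genes. Slc3a2 (1.26), Sesn1 (0.83), a sestrin, Gstp1 (0.64) and Msrb1 (0.63), a selenium-dependent methionine sulfoxide reductase, were the highest, and Aox1 (-0.95), aldehyde oxidase, Oplah (-0.79) and Gstt1 (-0.72), a glutathione transferase, the lowest. In mock-treated diaphragm 17 of 65 (26.2%) were higher, under the 30.9% of all genes, and none lower, with a median of 0.24, and after median-ratio scaling 1 was higher and 5 lower, with 7.39% and 8.41% of all genes. Slc3a2 (1.35), Sesn1 (0.86), Maff (0.70), a small partner protein of NRF2, and Mgst3 (0.67) were the highest, and Slc3a2 alone was still called as higher after median-ratio scaling (1.13). Under rFibcd1 5 of 65 (7.69%) were higher between the melanomas, near the 7.14% of all genes: Slc3a2 (0.78), Mgst3 (0.51), Txn1 (0.48), thioredoxin, Fth1 (0.32), the ferritin heavy chain, and Prdx1 (0.20). None was lower, and after median-ratio scaling 2 were higher (Slc3a2 and Txn1) and 1 lower (Msra), with 4.23% and 4.74% of all genes. None of the 65 was called as deposited for rFibcd1 against mock in either melanoma group, and after median-ratio scaling Ephx1, an epoxide hydrolase, was lower in non-cachectic diaphragm (-0.55, adjusted p = 0.041). Slc3a2 was called in all 4 comparisons between the melanomas, on both scales.

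Neutrophil markers also moved with the cachectic melanoma, 8 genes summing to medians of 36.5 against 6.90 TPM in mock-treated diaphragm, 12.1 against 3.07 TPM in tibialis anterior and 18.0 against 4.82 TPM in soleus, with Mpo at 0 in every cachectic limb library. Macrophage markers in soleus had medians of 193.5 and 121.4 TPM with overlapping ranges (87.3 to 421.1 and 115.2 to 157.3 TPM). Red-cell markers had medians of 5110 against 4609 TPM in mock-treated diaphragm, 688 against 473 TPM in tibialis anterior and 747 against 1075 TPM in soleus. Liver markers in tibialis anterior summed to at most 35.6 TPM, and mesothelial markers to at most 5.55 TPM. The part of any of these cells in the differences of the members was not tested.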

How the data were processed

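RNA-seq was carried out on diaphragm, tibialis anterior and soleus. The authors aligned the reads in CLC Genomics Workbench to mm10 (GRCm38) and deposited TPM per gene symbol. The annotation they used is not given in the sources used here, and the labels and the methods name different library kits and sequencers. TPM was used as deposited, transformed to log2(TPM + 1), and genes at 1 TPM or more in at least as many libraries as the smallest group were tested with limma 3.58.1 (R 4.3.3) with an intensity trend and Benjamini-Hochberg adjustment over all genes, called at an adjusted p under 0.05. The 4 diaphragm groups were fitted together, each limb muscle alone, and the 6 groups without rFibcd1 together for comparisons between muscles. Errors of log2 differences are SE and intervals are 95%. Tables were handled with pandas 2.3.3, and scripts were tested on simulated data. The depth is unknown, so no counting error could be given.

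Alternatives were a pseudocount of 0.1, no filter, a mean TPM of at least 5, median-ratio scaling, the library state as a term, only the 2 groups compared, rank tests (Dunn in diaphragm, exact rank-sum in the limb muscles), a replicate block and leaving out each library. High-state libraries alone were added after seeing the data. All 10 members were named throughout, with the 4 highest and 4 lowest called pathway genes per comparison between melanomas, 3 regulators and the 2 most alike genes of each member. The members and lists were chosen with earlier results of these data known. Positions were taken from GENCODE on GRCm38 and promoters from RefSeq on GRCm38.p6.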

Additional observations from a re-analysis of the deposited data

Results flagged for a closer look

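Of 80 sets of values (10 genes in 8 groups), 9 held a library that stood apart from its group by Dixon's criterion, which chance alone gives in about 1 in 20 sets. In cachectic diaphragm with rFibcd1, library 14 was high for Nqo1 at 97.0 TPM (next 50.3 TPM), and library 3 for Cat at 351.4 TPM (next 195.9 TPM). In cachectic mock diaphragm, library 20 was high for Gclc at 19.3 TPM (next 13.005 TPM) and library 22 low for Txnrd1 at 42.4 TPM (next 61.4 TPM). In non-cachectic mock diaphragm, library 64 was high for Gclc at 15.4 TPM (next 9.46 TPM) and for Cat at 332.1 TPM (next 227.6 TPM). In non-cachectic diaphragm with rFibcd1, library 56 was high for Cat at 254.4 TPM (next 196.7 TPM) and library 49 low for Gpx3 at 222.5 TPM (next 332.7 TPM). In cachectic tibialis anterior, library 8 was high for Gsr at 55.8 TPM (next 31.6 TPM).

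The response to the cachectic melanoma differed between muscles in 9 tests of the difference itself, 4 of them between diaphragm and tibialis anterior, where 5.04% of all genes were called, and 5 between tibialis anterior and soleus, where 20.4% were. After median-ratio scaling 3 of the 9 were still called: Gsr and Txnrd1 in the first and Hmox1 in the second. Relative to tibialis anterior, diaphragm differed by -1.18 for Nqo1, -0.75 for Gsr, -0.73 for Txnrd1 and -0.61 for Sod1 on the log2 scale. Relative to soleus, tibialis anterior differed by 1.39 for Nqo1, 1.49 for Hmox1, 0.66 for Gsr, 0.53 for Txnrd1 and 0.50 for Sod1.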

How the results depend on the processing

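Over the 10 members and 13 comparisons, 52 values were called. Median-ratio scaling kept 32 of these calls, lost 18 and turned 2 in direction (between diaphragm and tibialis anterior with the non-cachectic melanoma, Gsr to -0.14 and Txnrd1 to -0.28), and called 7 of the 78 others. It left 3 calls in place of 5 in mock diaphragm, 2 in place of 4 for the response of diaphragm against tibialis anterior, 1 in place of 0 against soleus and 1 in place of 5 for tibialis anterior against soleus, where no filter left 3. With the state as a term or in high-state libraries alone, 1 member was called in mock diaphragm. Under rFibcd1 the 2 calls went to 0 in high-state libraries alone, with only the 2 groups compared and with rank tests. With only the 2 groups compared, 1 member was called for rFibcd1 in non-cachectic diaphragm and 8 in place of 5 for the level of diaphragm against soleus, with 19.6% of all genes in place of 0.417% and 55.0% in place of 38.8%. A pseudocount of 0.1 kept all 52 calls, as did a mean TPM of at least 5, which added 1. No filter on low values lost 5 of the 52. The level of diaphragm against soleus then had 4 calls in place of 5, with 25.4% of all genes in place of 38.8%. The cause of these changes was not tested.

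Leaving out 1 library gave 3 to 6 calls in mock diaphragm, 2 to 4 under rFibcd1, 0 to 1 for rFibcd1 in cachectic diaphragm and 0 to 0 in non-cachectic diaphragm and for the interaction. It gave 8 to 8 in tibialis anterior, 5 to 6 in soleus, 3 to 4, 0 to 0 and 3 to 7 for the responses of diaphragm against tibialis anterior, diaphragm against soleus and tibialis anterior against soleus, and 8 to 9, 3 to 6 and 8 to 8 for the levels in the same order. With all libraries, 33.5% of all genes were called in mock diaphragm, 9.11% under rFibcd1, 60.2% in tibialis anterior and 25.1% in soleus. For rFibcd1 the shares were 0.0447% in cachectic and 0.417% in non-cachectic diaphragm, and 0.0223% for the interaction. They were 5.04%, 2.52% and 20.4% for the responses and 72.5%, 38.8% and 69.5% for the levels.

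Over all genes, median-ratio scaling called 2121 in place of 4501 genes in mock diaphragm (992 higher and 1129 lower), 27 in place of 6 for rFibcd1 in cachectic diaphragm and 1551 in place of 2750 for the response of tibialis anterior against soleus. In tibialis anterior it gave 2043 higher and 2433 lower in place of 6260 and 420, in soleus 1820 and 1530 in place of 2098 and 901, and under rFibcd1 568 and 636 in place of 958 and 265. In mock diaphragm the state as a term called 2059 and high-state libraries alone 805 genes, and high-state libraries alone called 789 in place of 6 for rFibcd1 in cachectic diaphragm and 0 in place of 1223 between the melanomas under rFibcd1. With only the 2 groups compared, 335 in place of 1223 genes were called under rFibcd1, and 2453 in place of 56 for rFibcd1 in non-cachectic diaphragm.

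No paired analysis was possible within a muscle because its melanoma groups share no column numbers. Between muscles, 10 numbers were shared, and the deviations of same-numbered libraries correlated at a median of 0.32 over 30 pairs (lowest 0.05, 28 above 0.1). Each library with a shared number was also matched to the closest of 5 libraries of the same melanoma in each other muscle. Of 60 matches tried, 52 chose the library's own number, a hint from the data and not the design. With the number as a replicate block, 31 of 31 calls stayed and 6 were added. Hmox1 (-0.89, adjusted p = 0.033) and Gclc (-0.64, 0.029) were added for the response of diaphragm against tibialis anterior (6 calls in place of 4, with 17.2% of all genes in place of 5.04%), and Cat (0.51, 0.017) and Gpx3 (1.22, 0.010) for tibialis anterior against soleus (7 in place of 5, with 41.2% in place of 20.4%). Hmox1 and Gclc were added for the level of diaphragm against soleus (7 in place of 5, with 49.9% in place of 38.8%). The other counts stayed at 0, 9 and 8, with 7.36%, 76.9% and 76.1% of all genes.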
